A study of Mus musculus with 6 samples.

Results

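The 10 genes described here encode the precursors of 3 neuropeptides of the cerebral cortex, neuropeptide Y (Npy), cholecystokinin (Cck) and cocaine- and amphetamine-regulated transcript peptide (Cartpt), and 7 receptors of the same or related peptides, Npy1r, Npy2r, Npy5r, Cckbr, Sstr1, Sstr2 and Sstr3. They were chosen by name from the 19943 genes listed in the deposited tables. The rule that names them uses no measured value, but it was written with earlier results of these data known. RNA sequencing compared the medial prefrontal cortex of 3 isolated libraries, from C57BL/6 mice kept in social isolation for 3 weeks after weaning, with that of 3 control libraries from C57BL/6 mice. The labels give an age of 6 weeks to all samples, whereas the design text of the series gives 7 weeks, and they do not say how the control mice were housed. The sex of the mice is not stated, nor is it said that each library is a different animal, so the p-values measure only the spread between these libraries, which may be technical.

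Neuropeptides are cut from larger precursors, stored in dense-core vesicles and act on G protein-coupled receptors. In the cortex neuropeptide Y is made mainly by inhibitory interneurons, many of which also make somatostatin, and its receptors couple to inhibitory G proteins. Cholecystokinin is made by a class of interneurons and, as messenger RNA, by many pyramidal neurons, and its main receptor in the brain is the one encoded by Cckbr. The peptides from Cartpt are best known from the hypothalamus and the nucleus accumbens, a part of the striatum. Somatostatin receptors, encoded by Sstr1 to Sstr3 and their relatives, answer somatostatin and cortistatin and dampen neuronal firing.

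The libraries held 18390902 to 18606573 expected counts in the isolated group and 18226448 to 18544306 in the control group. Markers of cortical pyramidal neurons were abundant in all 6 libraries, with Slc17a7, the vesicular glutamate transporter of these cells, between 1563 and 1984 CPM (expected counts scaled to library depth with TMM factors). Of the 11 pyramidal markers 5 had a higher and 6 a lower mean in the isolated group, and 0 passed the test. Fezf2 had a higher mean (log2 difference 0.50, edgeR unadjusted p = 0.040). Its groups overlapped, with isolated 3 at 35.6 CPM below control 3 at 36.2 CPM. Rorb was lower in every isolated library than in any control (log2 difference -0.46, edgeR unadjusted p = 0.010). Markers of striatal projection neurons, which belong to the neighbouring striatum, differed widely within both groups. Their 14 genes summed to 696, 692 and 2944 CPM in isolated 1, 2 and 3, and to 1310, 4044 and 479 CPM in control 1, 2 and 3. Isolated 3 and control 2 were thus the highest libraries of their groups, and each of the 10 genes is given below also without both. Leaving both out does not even out the striatal level. Control 1, at 1310 CPM, and control 3, at 479 CPM, still differed from each other and from isolated 1 and 2, at 696 and 692 CPM. All 14 striatal markers had a lower mean in the isolated group, and 0 passed the test. Of these markers Isl1 was at 0 in 1 library, with 0.163, 0.381 and 3.67 CPM in the isolated libraries and at 0.595, 4.19 and 0 CPM in control 1, 2 and 3. Hypothalamic markers were near 0. The 3 of 9 that passed the filter, Pomc, Trh and Kiss1, summed to 2.33, 2.18 and 3.04 CPM in isolated 1, 2 and 3, and to 2.87, 3.05 and 2.53 CPM in control 1, 2 and 3, with log2 differences of -0.37 for Pomc, 0.19 for Trh and -0.52 for Kiss1. Of those below the filter Avp reached 16 counts in isolated 2, and Agrp, Hcrt, Pmch and Oxt had at most 9 counts in a library. Choroid plexus markers, 3 genes, summed to 4.29, 4.30 and 10.1 CPM in isolated 1, 2 and 3, and to 3.30, 7.35 and 2.86 CPM in control 1, 2 and 3. In this list 2 had a higher and 1 a lower mean in the isolated group, and 0 passed. Ttr was higher in every isolated library than in any control, as were 4.12% of all tested genes. Its log2 difference was 0.92 (edgeR unadjusted p = 0.020, adjusted p = 0.999). Clic6 was highest in isolated 3 (5.75 CPM) and control 2 (4.47 CPM) within each group. All 7 myelin markers had a higher mean in the isolated group, with sums of 3564, 3837 and 6548 CPM in isolated 1, 2 and 3 and of 4584, 3263 and 2740 CPM in control 1, 2 and 3, and 0 passed. The 19 interneuron markers summed to 2008, 1847 and 2111 CPM in isolated 1, 2 and 3, and to 1985, 2254 and 1881 CPM in control 1, 2 and 3. In this list 7 had a higher and 12 a lower mean in the isolated group, and 0 passed. Nr2f2 and Adarb2 were lower in every isolated library than in any control, as were 4.73% of all tested genes. Their log2 differences were -0.56 and -0.14 (edgeR unadjusted p = 0.0094 and 0.069). Gad2 and Slc32a1 were highest in isolated 3 (262 and 153 CPM) and control 2 (277 and 143 CPM) within each group. The part of pyramidal, hypothalamic, choroid plexus, myelin and interneuron markers in the results below was not tested.

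The levels of the 10 genes spanned a wide range. Levels of different genes are compared in FPKM, which is scaled to gene length and depth, as deposited. Cck was the most abundant, at 381 ± 48.3 FPKM in isolated and 358 ± 80.7 FPKM in control libraries (SD, n = 3 each). Npy followed at 106 ± 10.1 FPKM in isolated and 104 ± 14.7 FPKM in control libraries, and Cckbr at 27.9 ± 6.63 FPKM in isolated and 28.3 ± 2.63 FPKM in control libraries. Over the 6 libraries these 3 genes did not overlap with each other or with any gene below them. Sstr2, Npy1r, Sstr1 and Sstr3 formed a middle group, with means over the 6 libraries of 13.8, 11.3, 8.71 and 7.65 FPKM, and each overlapped with the next in this order. Cartpt came next with a mean of 4.71 FPKM over the 6 libraries, and its highest library, at 7.90 FPKM, overlapped with Sstr3. Npy5r, at 1.96 to 2.80 FPKM, and Npy2r, at 0.55 to 1.21 FPKM, were the scarcest and overlapped neither with each other nor with the genes above them. Among the receptors of neuropeptide Y the order Npy1r, Npy5r, Npy2r held in each of the 6 libraries.

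**Figure D1:**
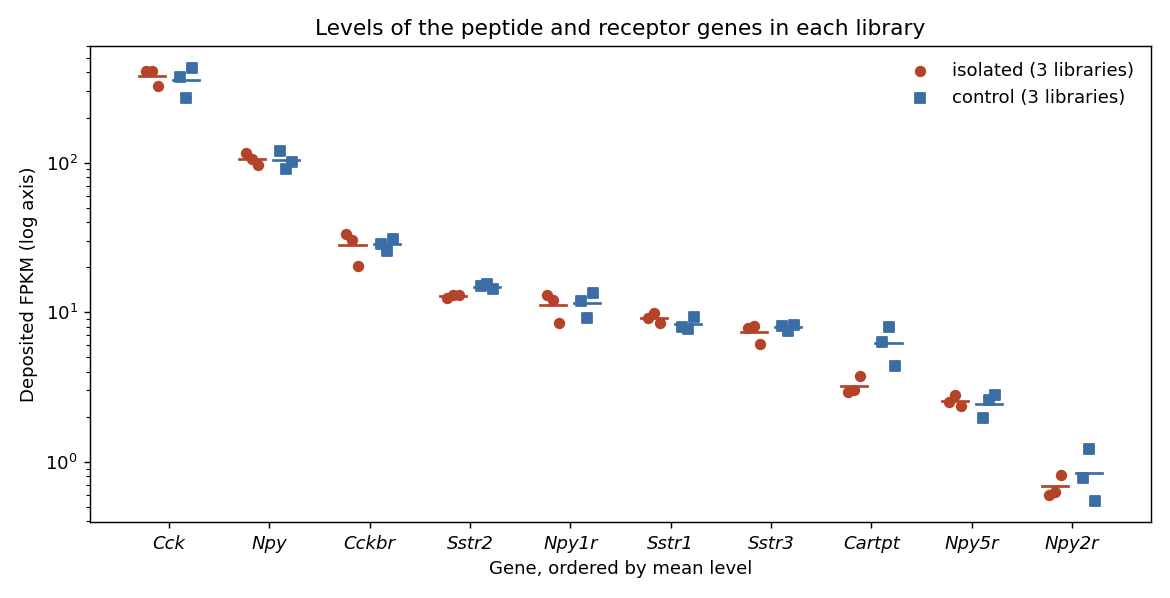
Deposited FPKM (log axis) of each gene in the 3 isolated libraries (circles) and the 3 control libraries (squares), with short lines at the group means. Cck and Npy lie far above the receptors, and Cartpt and Sstr2 are the genes whose isolated and control points do not overlap.

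To ask whether isolation after weaning altered these genes, isolated and control libraries were compared with edgeR's quasi-likelihood test over 15169 genes, with p-values adjusted over all of them by the Benjamini-Hochberg method. All 10 genes passed the filter on low counts, the scarcest with 34 counts in its lowest library. Of the 10 genes 0 passed the threshold of 0.05 in either direction, as did 0 of all tested genes (0%). Without adjustment 2 of the 10, Cartpt and Sstr2, had a p under 0.05, both with a lower mean in the isolated group, beside 3.53% of all genes in either direction, 2% lower and 1.52% higher. The same 2 genes were those whose groups did not overlap, which held for 8.85% of all tested genes, 4.73% lower and 4.12% higher. Isolated means were higher for 4 of the 10 genes and lower for 6, with a median log2 difference of -0.03 beside 0.00 over all genes (50.8% of them lower). With DESeq2 0 of the 10 passed as well, and with limma-voom 0.

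**Figure D2:**
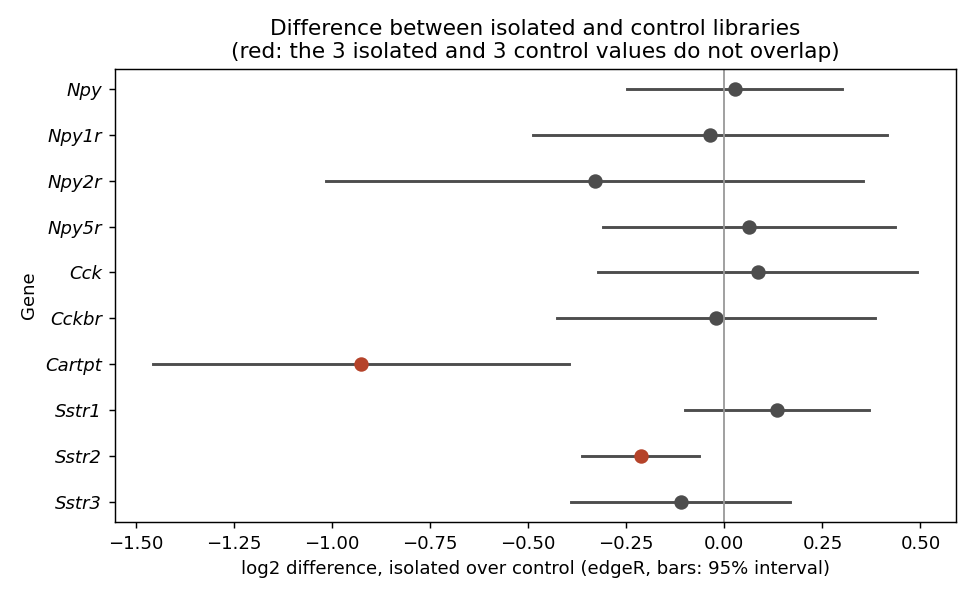
The log2 difference of isolated over control libraries for each of the 10 genes (points) with its 95% interval from edgeR (bars), on a horizontal log2 axis, with red points for genes whose groups do not overlap. The intervals of Cartpt and Sstr2 lie below 0, although neither passed after adjustment over all genes, and those of the other 8 genes include 0.

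Cartpt had the largest difference of the 10. It stood at 2.39, 2.56 and 3.04 CPM in isolated 1, 2 and 3, against 5.19, 6.37 and 3.63 CPM in control 1, 2 and 3. Every isolated library thus lay below every control library, with isolated 3 and control 3 the closest. The means were 2.66 ± 0.336 CPM in isolated and 5.06 ± 1.38 CPM in control libraries (SD, n = 3 each), and the log2 difference was -0.93 (SE 0.23, 95% interval -1.46 to -0.40). With edgeR its unadjusted p was 0.0040, rank 17 of 15169 genes, and its adjusted p was 0.999. These values rest on 44, 47 and 57 counts in the isolated libraries and on 96, 117 and 66 counts in the control libraries. The Cartpt gene occupies bases 99898483 to 99910179 of chromosome 13 (GRCm38, Entrez 27220), and no exon of another gene overlapped its exons in the GENCODE annotation. The tables list 2 transcripts for it, and the deposited length varied between 836 and 872 bases among libraries.

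Within each group Cartpt was highest where striatal markers were highest, in isolated 3 and control 2. Without these 2 libraries its log2 difference was -0.83 (edgeR unadjusted p = 0.0077, adjusted p = 0.9999), and with the striatal level of each library as a covariate it was -0.88 (unadjusted p = 0.00024, adjusted p = 0.608). The part of striatal tissue in the difference was not tested beyond these values. In bulk tissue fewer cells that express a gene cannot be told apart from less RNA per cell. The 12 immediate early genes, which neurons switch on with activity, also had lower means in the isolated group in 12 of 12 cases, with sums of 785, 644 and 772 CPM in isolated 1, 2 and 3 and of 1616, 986 and 677 CPM in control 1, 2 and 3. Control 3 was the lowest control for both Cartpt and these genes, and their part in the difference of Cartpt was not tested.

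**Figure D3:**
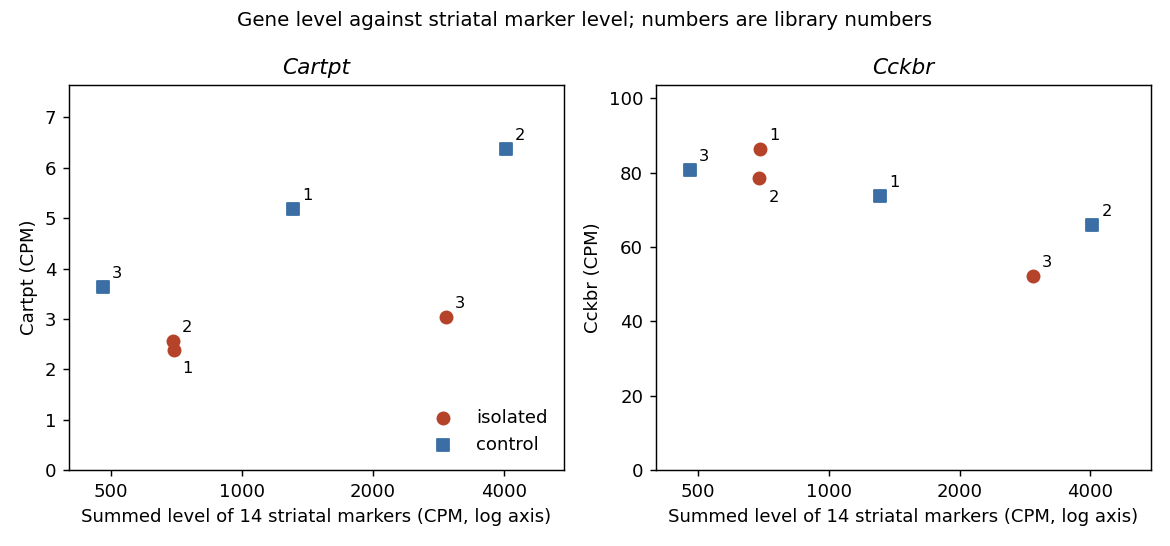
Level of Cartpt (left) and Cckbr (right) in CPM against the summed CPM of 14 striatal markers (log axis), with isolated libraries as circles and control libraries as squares numbered as in the text. Each isolated library lies below each control library for Cartpt, with 3 points per group at unlike striatal levels. Isolated 3 and control 2 have the highest striatal level of their groups. Within each group Cartpt is highest and Cckbr lowest in these libraries.

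Of the somatostatin receptor genes Sstr2 was the one whose groups were apart. It stood at 17.7, 18.4 and 18.3 CPM in isolated 1, 2 and 3, against 21.1, 21.6 and 20.3 CPM in control 1, 2 and 3. The means were 18.1 ± 0.369 CPM in isolated and 21.0 ± 0.652 CPM in control libraries (SD, n = 3 each). These values rest on 326, 338 and 343 counts in isolated 1, 2 and 3, and on 391, 396 and 369 counts in control 1, 2 and 3. Whether the small spread is less than counting noise would give was not tested. The log2 difference was -0.21 (SE 0.06, 95% interval -0.36 to -0.06, edgeR unadjusted p = 0.012, adjusted p = 0.999). With DESeq2 the unadjusted p was 0.066. The log2 difference varied little with the striatal level: it was -0.20 without isolated 3 and control 2 (edgeR unadjusted p = 0.071) and -0.21 with the striatal level as a covariate. The Sstr2 gene occupies bases 113619327 to 113626028 of chromosome 11 (GRCm38, Entrez 20606).

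The groups of Sstr1 and Sstr3 overlapped. Sstr1 was at 35.8, 38.3 and 32.3 CPM in isolated 1, 2 and 3, against 30.9, 29.7 and 36.3 CPM in control 1, 2 and 3, with a log2 difference of 0.13 (SE 0.10, 95% interval -0.10 to 0.37). Its groups overlapped through control 3, the second highest library, so leaving out control 3 sets them apart by choice. The difference was then 0.23 (edgeR unadjusted p = 0.044, adjusted p = 0.883). Over all genes 860 had an unadjusted p under 0.05 without control 3, beside 535 with all libraries. With any other single library left out the difference of Sstr1 was 0.08 to 0.20 (edgeR unadjusted p 0.10 to 0.53). Without isolated 3 and control 2 it was 0.14. Sstr3, which in neurons sits on the primary cilium, was at 31.4, 31.9 and 23.7 CPM in isolated 1, 2 and 3, against 32.0, 29.3 and 32.7 CPM in control 1, 2 and 3. Its log2 difference of -0.11 (SE 0.12, 95% interval -0.39 to 0.17) was 0.014 without isolated 3, its lowest library, and -0.031 without isolated 3 and control 2. Both ligands of these receptors had overlapping groups. The somatostatin gene Sst was at 144 ± 9.56 CPM in isolated and 136 ± 7.41 CPM in control libraries, and the cortistatin gene Cort at 2.93 ± 0.158 CPM in isolated and 3.02 ± 0.366 CPM in control libraries (SD, n = 3 each).

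The promoters of Cartpt and Sstr2 are shown because both genes were lower in every isolated library than in any control, and those of Npy and Cck because they are the most abundant peptide genes. The sequences are the 250 bases before the annotated start, 5′ to 3′ on the strand of the gene, from RefSeq on GRCm38.p6. Capitals mark the cyclic AMP response element, TGACGTCA, which binds the activity-regulated factor CREB, its shorter core TGACG, and the AP-1 site TGANTCA, each read on both strands.
Cartpt, chr13:99900684-99900933, minus strand: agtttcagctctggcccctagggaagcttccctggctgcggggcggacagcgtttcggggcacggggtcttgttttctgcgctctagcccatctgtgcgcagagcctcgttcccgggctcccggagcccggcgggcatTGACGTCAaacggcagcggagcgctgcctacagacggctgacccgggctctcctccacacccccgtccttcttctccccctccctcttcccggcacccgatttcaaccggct
Sstr2, chr11:113619077-113619326, plus strand: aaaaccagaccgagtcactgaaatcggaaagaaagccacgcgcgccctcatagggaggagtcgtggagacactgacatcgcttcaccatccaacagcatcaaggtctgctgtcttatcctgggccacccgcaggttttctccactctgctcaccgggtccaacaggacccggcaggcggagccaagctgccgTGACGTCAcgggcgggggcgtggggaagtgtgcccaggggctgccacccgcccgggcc
Npy, chr6:49822460-49822709, plus strand: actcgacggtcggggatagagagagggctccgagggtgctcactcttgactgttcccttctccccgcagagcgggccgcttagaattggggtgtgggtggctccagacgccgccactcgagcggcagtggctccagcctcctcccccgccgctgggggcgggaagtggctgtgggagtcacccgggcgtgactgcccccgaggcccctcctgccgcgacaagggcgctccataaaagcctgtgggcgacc
Cck, chr9:121495695-121495944, minus strand: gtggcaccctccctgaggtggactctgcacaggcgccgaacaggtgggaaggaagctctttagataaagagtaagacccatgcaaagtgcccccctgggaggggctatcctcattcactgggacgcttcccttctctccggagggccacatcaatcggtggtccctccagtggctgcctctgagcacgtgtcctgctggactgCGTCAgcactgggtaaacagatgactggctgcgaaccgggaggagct

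Promoters were at hand for 9 of the 10 genes, all but Sstr1. Of these 9 genes 2 held the full element TGACGTCA, Cartpt and Sstr2, beginning 112 and 58 bases before the start. The full element is present in 1.55% of the 32851 promoter windows of the same length. This is a share per window, not per gene, and covers genes that were not tested. Counted per gene, 353 of the 11974 tested genes with a promoter hold it. The core TGACG, which the full element contains on both strands, was also found in Cck, 47 bases before the start, and in 1 of 2 promoters of Sstr3, 9 bases before the start (17.8% of all windows). TGANTCA was found in Npy1r (6.75% of all windows), and TATAAA, present in 12.4% of all windows, in none of the 9. Over the whole data set the shares of lower genes were alike with and without regard to the element. Of 353 tested genes that hold it 47.9% had a lower mean in the isolated group, beside 50.7% of the 11974 tested genes with a promoter. Groups were apart with lower isolated values for 5.1% of the genes with the element and 4.7% of all 11974. The Cartpt window precedes a transcript start that lies inside the annotated span of the gene. The motifs were chosen with the differences known, and a match of letters is no measurement of binding.

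The neuropeptide Y gene itself differed little between the groups. Npy was at 64.5, 58.5 and 52.2 CPM in isolated 1, 2 and 3, against 66.1, 49.7 and 56.2 CPM in control 1, 2 and 3. The ranges of both groups coincided almost fully, and the log2 difference was 0.03 (SE 0.12, 95% interval -0.25 to 0.30, edgeR adjusted p = 0.999). Without isolated 3 and control 2 it was 0.0071. The Npy gene occupies bases 49822710 to 49829507 of chromosome 6 (GRCm38, Entrez 109648).

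Npy1r, the most abundant of the neuropeptide Y receptor genes, was at 39.5, 36.1 and 25.4 CPM in isolated 1, 2 and 3, against 35.8, 27.1 and 40.6 CPM in control 1, 2 and 3. The lowest library of each group was the one richest in striatal markers, and the log2 difference was -0.04 (SE 0.19, 95% interval -0.49 to 0.41), and -0.016 without these libraries. Npy1r was also the only gene of the 10 with fractional expected counts. Npy5r, which lies 9054 bases from Npy1r on chromosome 8 and is read from the opposite strand, was at 5.81, 6.47 and 5.38 CPM in isolated 1, 2 and 3, against 4.54, 5.88 and 6.49 CPM in control 1, 2 and 3. Its groups overlapped (log2 difference 0.06, SE 0.16, 95% interval -0.31 to 0.43, 0.16 without isolated 3 and control 2), and its order over the libraries was not that of Npy1r: control 1 was its lowest library.

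Npy2r, which in many neurons acts as a presynaptic autoreceptor, was at 2.01, 2.07 and 2.72 CPM in isolated 1, 2 and 3, against 2.65, 4.03 and 1.87 CPM in control 1, 2 and 3. As for Cartpt, its highest library in each group was isolated 3 and control 2. Its log2 difference of -0.33 had a wide interval, from -1.02 to 0.35 (SE 0.29), and was 0.0041 without control 2 and -0.15 without isolated 3 and control 2. These values rest on 34 to 74 counts per library.

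Cck was at 280, 279 and 219 CPM in isolated 1, 2 and 3, against 253, 183 and 296 CPM in control 1, 2 and 3. Isolated 3 and control 2 were the lowest libraries of their groups, and the other 4 lay between 253 and 296 CPM. The log2 difference was 0.09 (SE 0.17, 95% interval -0.32 to 0.49, edgeR adjusted p = 0.999), and it was 0.02 without those 2 libraries. Its receptor gene Cckbr was at 86.3, 78.4 and 52.3 CPM in isolated 1, 2 and 3, against 73.6, 65.9 and 80.7 CPM in control 1, 2 and 3. The same 2 libraries were the lowest, and the log2 difference of -0.02 (SE 0.17, 95% interval -0.43 to 0.38) was 0.09 without them. The Cck gene occupies bases 121489824 to 121495694 of chromosome 9 (GRCm38, Entrez 12424), and Cckbr bases 105425676 to 105436339 of chromosome 7 (Entrez 12426).

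Within both groups most of the 10 genes had their lowest or their highest value in the library of highest striatal level. Npy, Npy1r, Cck, Cckbr, Sstr1 and Sstr3, 6 of the 10, were lowest in isolated 3 among the isolated libraries and in control 2 among the control libraries, which held for 2733 of the 15169 tested genes. Npy2r and Cartpt were highest in both, as were 2676 of the 15169. The summed cortical pyramidal markers, with Camk2a and Slc17a7 among them, were also lowest in these libraries within each group. Their 11 genes summed to 9123, 8899 and 7648 CPM in isolated 1, 2 and 3, and to 9006, 7676 and 9463 CPM in control 1, 2 and 3. The part of tissue makeup in this spread was not tested. The largest deviations of the 6 genes from their mean over all libraries were -0.46 on the log2 scale for Cckbr in isolated 3 and -0.44 for Cck in control 2.

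**Figure D4:**
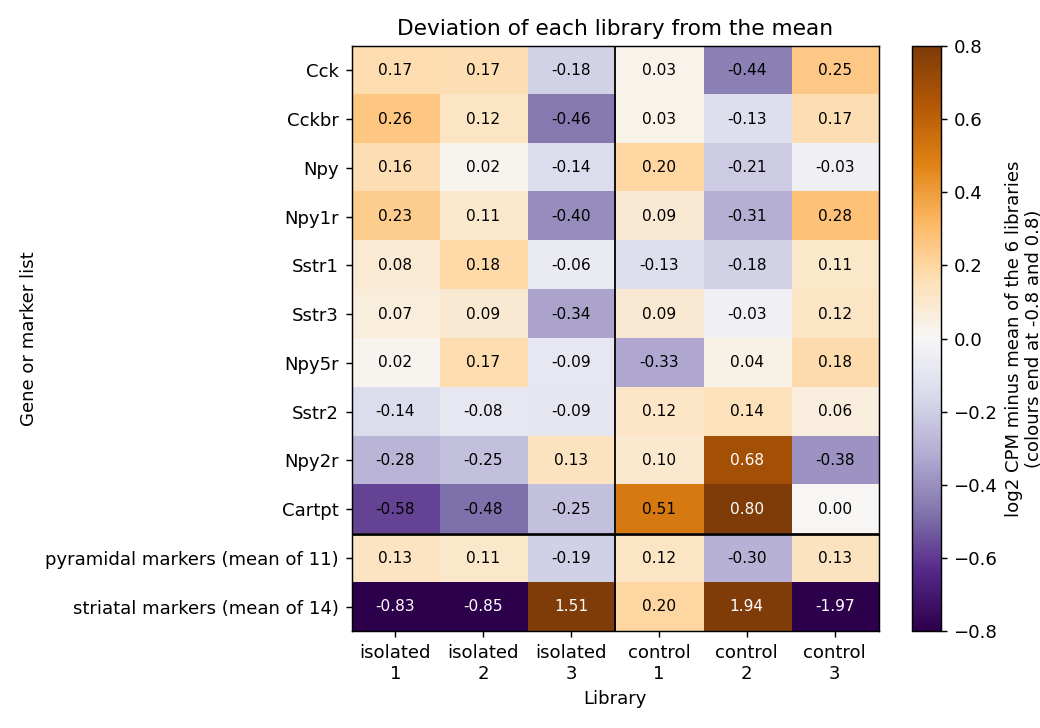
Deviation of each library from the mean of the 6 libraries, in log2 CPM, for the 10 genes (upper rows) and for the means of the pyramidal and the striatal marker lists (lower rows), isolated libraries left and control libraries right. Cck, Cckbr, Npy and Npy1r are lowest in isolated 3 and control 2, the libraries in which striatal markers lie 1.51 and 1.94 above the mean, and Cartpt and Npy2r are highest there within each group.

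Genes with the most alike pattern to each peptide gene were sought as those with the smallest root mean square difference in log2 CPM deviations over the 6 libraries. For Cck these included the sialyltransferase gene St8sia5 at a distance of 0.043 and 1110032F04Rik at 0.045. St8sia5 stood at 78.7, 73.0 and 58.8 CPM in isolated 1, 2 and 3, against 68.2, 50.1 and 75.9 CPM in control 1, 2 and 3. For Npy the nearest were Cdan1 at 0.027, Ppm1l at 0.031 and E330034G19Rik at 0.035. For Cartpt the nearest were Stac3 at 0.139, Tnfaip8l2 at 0.159 and AW112010 at 0.17, each under 2.1 CPM in all 6 libraries. The distance is not scaled to the spread of a gene, so distances are not comparable between peptide genes. Log2 CPM ranged over 1.38 for Cartpt, 0.69 for Cck and 0.41 for Npy. All genes of this comparison share the 6 libraries and their striatal spread, and likeness over 6 libraries says nothing of a shared role.

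Other genes of the peptide systems were described by lists chosen from general knowledge. Of 12 genes that process peptide precursors 9 had a higher and 3 a lower mean in the isolated group, with 0 past the threshold and a median log2 difference of 0.03. The convertase gene Pcsk1, which cuts precursors at paired basic residues, was at 34.1, 28.9 and 22.6 CPM in isolated 1, 2 and 3, against 24.5, 23.9 and 29.8 CPM in control 1, 2 and 3, with overlapping groups. Tpst2, a tyrosylprotein sulfotransferase of the kind that cholecystokinin needs for its sulfated tyrosine, was at 22.0 ± 2.45 CPM in isolated and 19.7 ± 0.641 CPM in control libraries (log2 difference 0.15, SE 0.09). The protease gene Ctsl was at 60.1 ± 0.668 CPM in isolated and 64.2 ± 2.39 CPM in control libraries (log2 difference -0.09, SE 0.05), and its groups did not overlap. Neither gene passed with edgeR. Of 9 dense-core vesicle genes 5 were higher and 4 lower, within log2 differences of -0.09 for Cadps2 and 0.08 for Vgf.

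Among the 6 peptidases, Dpp4, which trims neuropeptide Y to a form that prefers other receptors than Npy1r, was at 6.95, 6.91 and 5.11 CPM in isolated 1, 2 and 3, against 5.84, 3.49 and 5.55 CPM in control 1, 2 and 3. Its log2 difference was 0.35 (SE 0.22), with overlapping groups. Of the 6 peptidases 2 had a higher and 4 a lower mean, and 0 passed. Tpp2, which degrades cholecystokinin, was at 69.9 ± 2.54 CPM in isolated and 73.4 ± 4.80 CPM in control libraries. Of 13 G proteins and effectors of the receptors 4 were higher and 9 lower, with a median log2 difference of -0.04 and 0 past the threshold. In this list Rgs4, which shortens signalling of inhibitory and Gq-type G proteins, was at 558, 478 and 515 CPM in isolated 1, 2 and 3, against 573, 665 and 590 CPM in control 1, 2 and 3. Its groups were apart (log2 difference -0.24, SE 0.08, edgeR unadjusted p = 0.021, adjusted p = 0.999), whereas the adenylyl cyclase gene Adcy1 had a log2 difference of 0.15 (SE 0.16).

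The other members of the ligand and receptor families were mostly scarce. Sstr4 was at 14.4 ± 0.35 CPM in isolated and 13.2 ± 1.87 CPM in control libraries (log2 difference 0.13, SE 0.11), and Gpr160, proposed as a receptor for the peptides from Cartpt, at 0.880 ± 0.198 CPM in isolated and 1.07 ± 0.418 CPM in control libraries (SD, n = 3 each). Cckar and Sstr5 had at most 3 and 9 counts in any library, and Npy4r and Gast at most 1.

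**Figure D5:**
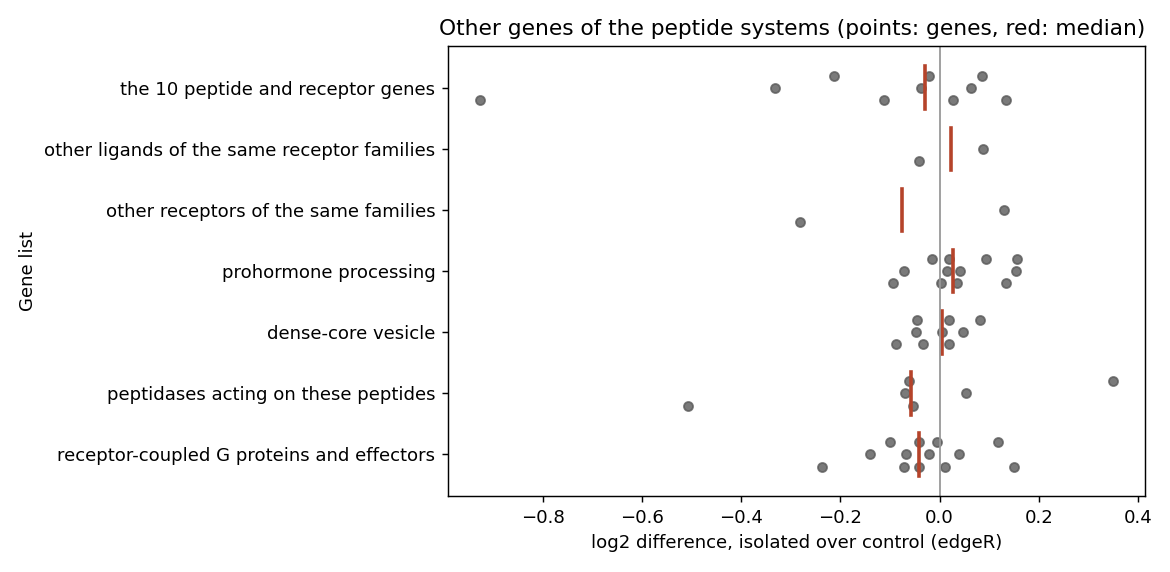
The log2 difference of isolated over control libraries for each tested gene (points) in the set of 10 and in 6 lists of related genes, with the median of each list (red line). Medians lie between -0.08 and 0.03, and Cartpt is the point farthest from 0.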

How the data were processed

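Libraries of total RNA were read on a BGISEQ-500 in 50-base reads, per the labels' protocols. The authors deposited for each library expected counts per gene, which are not normalized, and FPKM values and gene lengths in bases, per the file headers. Per the submitters' processing notes the tools were HISAT, Bowtie2 and RSEM, and the build mm10. Whether counting used strand is not stated. A series table with 6 FPKM columns was not used, because its codes match no label.

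A gene absent from a library's table counted as 0, and 1 entry without symbol (at most 0.00095% of counts) was left out. Symbols and coordinates came from RefSeq (GRCm38.p6), which matched 19899 of 19943 genes. After rounding to whole numbers the expected counts were fitted in edgeR 4.0.16 (R 4.3.3, filterByExpr, minimum count 10 and total 15, 15169 genes kept, TMM factors 0.991 to 1.01, quasi-likelihood F-test, no covariate, adjusted p under 0.05). Levels within a gene are TMM-normalized CPM. Standard errors come from the fold change and F, and deviations and likeness from log2 CPM with a prior count of 2. Alternatives used DESeq2 1.42.0 and limma 3.58.1. The edgeR fit was tested on simulated data. No libraries were duplicates by their counts (chi-square per gene and pair 2.90 to 20.5). Depth limits scarce genes most, and intervals cover these libraries only.

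The 10 genes and the lists were chosen with earlier results of these data known. Named beside the 10 were, per list, the gene with the smallest p in each direction, Sst and Cort, and the 3 genes most alike to each peptide gene, of which 1 is not reported here. Pcsk1 and the scarce family members were named after their values were seen.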

Additional observations from a re-analysis of the deposited data

How the results depend on the processing

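Over 16 alternatives, namely other normalization (DESeq2 size factors), DESeq2, limma-voom, no filter, limma on log2(FPKM + 1) with and without a filter and on log2(FPKM + 0.1), a replicate block, each library left out, isolated 3 and control 2 left out together, and the striatal level as a covariate (the last chosen after seeing the data), 0 of the 10 genes passed the threshold. The log2 differences of Cartpt (-1.12 to -0.73), Sstr2 (-0.24 to -0.19) and Sstr1 (0.08 to 0.23) kept their sign in all 16, and the smallest adjusted p of Cartpt was 0.608. Over all genes DESeq2 called 1 gene, Fkbp5 (adjusted p = 0.0068), and the other tools and settings 0. With edgeR 535 genes had an unadjusted p under 0.05, with DESeq2 306, with limma-voom 536, with the replicate block 331, when single libraries were left out 369 to 860, with the striatal covariate 932. Of the 10 genes 2 had an unadjusted p under 0.05 with edgeR, 3 without control 3, 1 with DESeq2 (p of Sstr2 0.066) and 1 without isolated 3 and control 2.

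Signs turned for the 7 genes other than Cartpt, Sstr2 and Sstr1, and the cause was not tested. When each library was left out in turn, the log2 difference ranged from -0.066 to 0.14 for Npy, -0.18 to 0.13 for Npy1r, -0.56 to 0.0041 for Npy2r, -0.071 to 0.18 for Npy5r, -0.083 to 0.25 for Cck, -0.17 to 0.16 for Cckbr and -0.19 to 0.014 for Sstr3. Without isolated 3 and control 2 together, Cckbr was at 0.093. Deviations of same-numbered libraries from their group means correlated across genes at 0.03, -0.27 and -0.49, and those of isolated 3 and control 2 at 0.44. The deviations include the striatal spread, so these values cannot tell whether the replicate numbers pair the samples. With the replicate block the log2 difference was -0.90 for Cartpt and -0.21 for Sstr2, and no call changed.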
